A study of Mus musculus with 31 samples.

Results

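The endoplasmic reticulum secretion and stress response is described here through 50 named mouse genes, which serve protein translocation, signal peptide cleavage, N-glycosylation, folding, degradation, vesicle transport and the unfolded protein response. They were taken by symbol, and all 50 are among the 22609 genes listed in each of 2 deposited tables of mammary gland expression. For every member, the ratio of each genotype to wild type was taken within its stage. The choice used the gene names and no measured value, but earlier results of these data were known when it was made. Of the 50 members, 49 reached the minimum of 1 FPKM (fragments per kilobase of transcript, scaled to the mapped fragments of a library) in at least 2 of 6 genotypes. These 49 stood at 1 FPKM or more in all 6 genotypes at both stages. The exception was Srp54a, which encodes the signal recognition particle subunit SRP54. It stood between 0.127 and 0.587 at parturition, and because near-identical copies of the gene exist (Srp54b, Srp54c) its value is uncertain and it enters no count.

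Poly(A) RNA came from mammary tissue freed of lymph nodes, on day 6 of pregnancy (18 samples, with 3 of each genotype) and at parturition, less than 12 hours after delivery (13 samples, with 3 of B and 2 of the others). The 6 genotypes differ in the number of functional alleles of Stat5a and Stat5b, neighbouring genes for the transcription factors that prolactin signalling activates in mammary epithelium. Null mice (Stat5ab fl/fl;MMTV-Cre) carried 0 functional alleles in mammary epithelial cells only, since the MMTV promoter of Cre line A drives the deletion there. B mice (Stat5ab null/Stat5a-) kept 1 Stat5b allele and A mice (Stat5ab null/Stat5b-) 1 Stat5a allele. BB mice (Stat5a-/-) kept 2 Stat5b alleles, and AB mice (Stat5ab+/null) kept 1 allele of each gene. AABB denotes wild type and Stat5ab fl/fl mice, with 4 alleles. In B, A, BB and AB the alleles were missing from every cell of the animal, stroma included. All animals were of a mixed 129SV::FVB/N::C57BL/6 background. The tables hold 1 column per genotype and stage, the authors' mean over samples. Every value below is such a mean, with no SD, no replicate check and no p-value, and a difference between columns cannot be set against the spread between animals.

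Secreted proteins enter the endoplasmic reticulum through the Sec61 channel, lose their signal peptide, receive N-glycans, and are folded by chaperones and disulfide isomerases before COPII vesicles carry them to the Golgi. When unfolded protein accumulates, the membrane sensors IRE1 (Ern1), PERK (Eif2ak3) and ATF6 raise folding and degradation capacity through XBP1, ATF4 and ATF6 itself. In the lactating gland this machinery serves the caseins and whey proteins of milk, and alveolar cells build an extensive rough endoplasmic reticulum around delivery.

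The ER stress response element, to which ATF6 binds together with the factor NF-Y, is CCAAT, any 9 bases, then CCACG. It was searched on both strands of the 250 bases before each gene's start in RefSeq sequences of build GRCm38.p6, which held 42 of the 50 members (Ero1l through its newer symbol Ero1a). It was found in 7 of these 42, against 0.130% of 27025 genes. The members were chosen by name, partly for the unfolded protein response, so this share is not an independent result about them. By role, 5 of 7 chaperone members, 1 of 5 for disulfide formation and 1 of 4 for degradation carry one. None was found among 2 sensors, 4 transcription factors, 9 translocation, 2 signal peptidase, 3 oligosaccharyltransferase and 6 transport members. Each line gives 15 bases, the element with its fixed bases in capitals, and 15 bases, in the element's own reading direction.
Hspa5, chr2:34772010-34772058, + strand: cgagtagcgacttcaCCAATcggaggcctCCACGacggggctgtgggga
Hsp90b1, chr10:86705623-86705671, - strand: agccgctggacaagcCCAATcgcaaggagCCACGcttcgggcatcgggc
Hsp90b1, chr10:86705518-86705566, + strand: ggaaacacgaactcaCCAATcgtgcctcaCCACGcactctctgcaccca
Calr, chr8:84847060-84847108, + strand: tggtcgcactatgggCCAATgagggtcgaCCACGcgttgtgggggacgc
Canx, chr11:50325785-50325833, - strand: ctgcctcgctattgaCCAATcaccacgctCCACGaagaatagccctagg
Dnajc3, chr14:118937812-118937860, + strand: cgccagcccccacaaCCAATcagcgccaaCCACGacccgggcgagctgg
Pdia6, chr12:17266476-17266524, + strand: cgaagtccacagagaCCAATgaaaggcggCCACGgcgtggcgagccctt
Syvn1, chr19:6046517-6046565, + strand: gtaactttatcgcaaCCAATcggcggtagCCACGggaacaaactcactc
The spacer between the fixed bases differs from gene to gene, and Hsp90b1 carries the element once on each strand. In Calr, and in the second site of Hsp90b1, it reads against the direction of the gene.

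The whole 250 bases before the start of Hspa5, the gene for the chaperone BiP that is the classic reporter of ER stress, are shown to place its element, in capitals, with 46 bases between it and the start (chr2:34771840-34772089, + strand).
Hspa5: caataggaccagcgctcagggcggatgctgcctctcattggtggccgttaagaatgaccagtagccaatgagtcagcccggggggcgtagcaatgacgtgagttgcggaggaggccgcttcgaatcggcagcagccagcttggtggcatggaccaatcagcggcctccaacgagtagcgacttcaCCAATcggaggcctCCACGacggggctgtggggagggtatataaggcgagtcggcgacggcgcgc
The shorter strings of this element were common, and more frequent among members than among all genes. CCACG was present in 26 of 42 members (61.9%) and 31.0% of all genes, CCAAT in 29 (69.0%) and 37.5%. ACGTGG, which read on the other strand contains CCACG whole, was present in 13 members (31.0%) and 7.84% of genes. TTC, any 3 bases, then GAA, the form bound by STAT factors, was present in 3 members (7.14% of the 42) and 8.13% of genes, so it was not more frequent among members. These 3 windows follow because STAT5 is the factor that was removed, with the fixed bases in capitals and 15 bases on each side.
Sec23b, chr2:144556008-144556046, + strand: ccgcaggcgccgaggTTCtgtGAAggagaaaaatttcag
Eif2ak3, chr6:70844371-70844409, + strand: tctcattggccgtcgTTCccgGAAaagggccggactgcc
Sec61g, chr11:16508534-16508572, - strand: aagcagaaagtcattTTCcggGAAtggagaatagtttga
A match is a string of letters in a reference sequence, and binding was not measured here. Entries for Atf6, Creb3l1, Sec61a1, Ssr2, Spcs3, Ostc, Lman1 and Kdelr2 were not used here.

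A level below is a scaled FPKM value: the 6 columns of each stage were brought to one scale by their median ratio to a geometric mean column. A ratio is the difference of log2(level + 1) between 2 columns, so that for genes at low levels the true fold is larger than printed. Counts of higher and lower genes take those at least 2-fold away from AABB on this scale, and within 2-fold also refers to it. Stat5a, the check on the labels, stood at 4.28 in BB and 70.3 in AABB at parturition. The column labelled B, without a functional Stat5a allele, held Stat5a at 8.55 at parturition and 12.5 on day 6, and the column labelled A held Stat5b at 10.3 and 10.6. The names B and A therefore mean the columns so labelled. FPKM sums lay between 433958 and 528347 on day 6. At parturition they lay between 432576 in Null and 1190588 in AABB, where 15 milk protein genes made up 66.4% of the sum. How the columns are scaled therefore sets the absolute direction at parturition. Scaled to the whole FPKM sum, the median of all genes for Null against AABB moved from 0.10 to 1.67 on the log2 scale, so ratios at parturition are read beside that of all genes. This holds for every direction given at parturition below.

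At parturition most genes of the secretory machinery of the endoplasmic reticulum were lower in Null than in AABB, relative to all genes compared. Of 49 members, 27 were at least 2-fold lower and 1, Ddit3, was at least 2-fold higher, while 10.7% of 13061 genes were lower and 19.0% higher. The median log2 ratio was −1.22 over the members and 0.10 over all genes. Under the main and the 8 other settings the members' median for Null lay between −1.37 and −0.99 relative to that of all genes, although scaling to the whole FPKM sum moved the members' own median to 0.68 and the count of lower members to 2. Under that scaling 1.58% of all genes were lower. The lowest member was Ssr4 at −3.96.

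**Figure D1:**
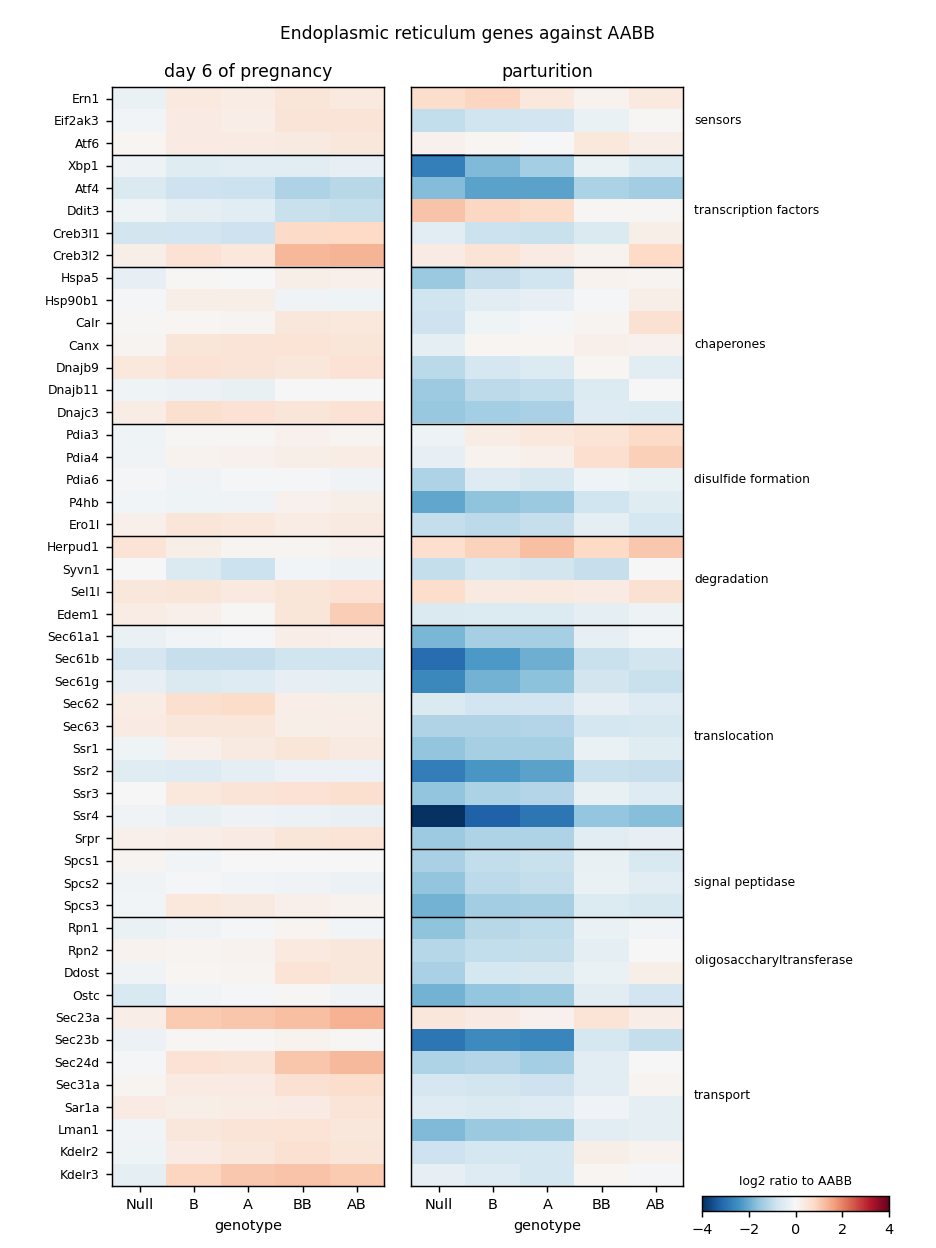
Log2 ratio of scaled FPKM + 1 to AABB for 49 members (rows, grouped by role) in 5 genotypes (columns) on day 6 of pregnancy and at parturition. Blue is lower and red higher than AABB, each cell is a ratio of 2 of the authors' means, and scaling to the whole FPKM sum moves all parturition cells toward red. The darkest cells are those of Ssr4, Sec61b, Sec23b, Ssr2 and Xbp1 in Null at parturition, with log2 ratios of −3.96, −3.05, −2.89, −2.78 and −2.73.

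The medians of the other genotypes lay nearer to AABB at parturition, with exceptions under 2 scalings. With the whole FPKM sum they were between 0.60 and 0.88, and with luminal markers those of B and A, −1.21 and −1.16, lay farther from AABB than that of Null, −0.75. In B, 22 of 49 members were at least 2-fold lower and 0 higher (all genes, 10.1% lower and 18.2% higher), with a median of −0.94. In A, 19 were lower and 1, Herpud1, was higher (10.0% and 17.3%), with a median of −0.89. In BB, 2 were lower and 0 higher (5.37% and 8.05%), with a median of −0.30. In AB, 2 were lower and 1, Herpud1, was higher (5.44% and 10.2%), with a median of −0.12. The lower members of BB and AB were Ssr4 and Atf4 in both, and their count was below the background share. With luminal markers as the scale, 7 were lower in BB and 12 in AB, above shares of 9.26% and 13.4% of all genes. The counts of lower members in B and A also moved with the scaling. In B they were 9 with FPKM as deposited (4.88% of all genes lower), 14 with the sum without milk proteins (6.33%) and 1 with the whole sum (1.26%). In A they were 8 as deposited (4.88%), 30 with luminal markers (14.9%) and 1 with the whole sum (1.31%). The 5 comparisons use the same AABB column, so they are not independent of each other.

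On the log2(level + 1) scale, the 3 ER membrane sensors stayed within 2-fold of AABB in every genotype at parturition. Ern1, which encodes the kinase and RNase IRE1, stood at 5.48 in Null, 6.24 in B, 4.41 in A, 3.47 in BB, 4.24 in AB and 3.01 in AABB, lowest in AABB. Atf6 stood at 10.9, 10.1, 9.62, 13.1, 11.5 and 9.44 in the same order, highest in BB. Eif2ak3, which encodes the eIF2α kinase PERK, went the other way from Ern1, at 7.50 in Null, 8.63 in B, 8.92 in A, 12.8 in BB, 16.2 in AB and 15.8 in AABB. Its log2 ratio of −0.98 in Null lay just inside 2-fold. By level alone, Eif2ak3 in Null stood at 47.6% of AABB and Ern1 in B at 207%, both beyond 2-fold.

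The transcription factors of the pathway did not move as a group. Xbp1, whose IRE1-spliced product drives the secretory programme, stood at 116 in Null, 229 in B, 302 in A, 648 in BB, 513 in AB and 777 in AABB. It was the member transcription factor with the lowest ratio in Null (−2.73), and its levels stood in the order of allele number, with BB above AB. Its level counts spliced and unspliced transcript together, since the table gives 1 value per gene.

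Atf4, the effector of the PERK branch and of amino acid shortage, followed another course. It stood at 86.2 in Null, 64.6 in B, 64.4 in A, 119 in BB, 110.2 in AB and 288 in AABB, so that AABB stood apart from all 5 other genotypes. The log2 ratio was −1.73 in Null, −2.14 in B, −2.14 in A, −1.27 in BB and −1.38 in AB. Atf4 and Ssr4 were the members at least 2-fold lower in all 5 genotypes.

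Ddit3, which encodes the pro-apoptotic factor CHOP, was highest where Xbp1 was lowest. It stood at 19.8 in Null, 15.8 in B, 15.0 in A, 8.81 in BB, 8.90 in AB and 8.50 in AABB, and its log2 ratio in Null was 1.13. Its ratio to Atf4, a known activator of its transcription, was 0.23 in Null, 0.25 in B, 0.23 in A, 0.07 in BB, 0.08 in AB and 0.03 in AABB. The genotypes with 0 or 1 allele thus formed one group on this ratio and those with 2 alleles another.

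The membrane-bound factors of the CREB3 family stayed within 2-fold. Creb3l1 stood at 18.6 in Null, 14.0 in B, 13.5 in A, 17.0 in BB, 31.1 in AB and 26.1 in AABB. Creb3l2 stood at 12.3, 14.4, 12.2, 10.8, 17.3 and 9.63 in the same order. Both were highest in AB.

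Among the 7 chaperones and co-chaperones, 4 were at least 2-fold lower in Null (Hspa5, Dnajb9, Dnajb11, Dnajc3), 2 in B (Dnajb11, Dnajc3) and 0 in BB and AB. Hspa5 stood at 219.7 in Null, 322 in B, 352 in A, 682 in BB, 671 in AB and 618 in AABB. It was highest in BB and AB rather than in AABB, and its log2 ratio to AABB was −1.49 in Null, −0.94 in B and −0.81 in A. Dnajc3, a BiP cochaperone also known as an inhibitor of PERK, stood at 33.4, 37.3, 39.2, 67.7, 65.4 and 96.8 and was highest in AABB.

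The lectin chaperones and GRP94 stayed within 2-fold of AABB in all 5 genotypes. Calr (calreticulin) ranged from 340.1 in Null to 912 in AB, with 603 in AABB. Canx (calnexin) ranged from 91.6 in Null to 137 in BB, with 118 in AABB, and Hsp90b1 (GRP94) from 236 in Null to 483 in AB, with 411 in AABB. All 7 chaperones were lowest in Null, and 5 of 7 were highest in BB or AB.

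Of 5 genes for disulfide formation, P4hb and Pdia6 were at least 2-fold lower in Null. P4hb, which encodes protein disulfide isomerase, stood at 198 in Null, 277 in B, 304 in A, 489 in BB, 608 in AB and 845 in AABB. Pdia6 stood at 91.7, 152, 141, 193, 183 and 218. Its relatives did not share this order.

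Pdia3, the isomerase that works with calnexin and calreticulin, stood at 196 in Null, 277 in B, 299 in A, 327 in BB, 384 in AB and 224 in AABB. Pdia4 was likewise highest in AB, at 158 against 80.6 in AABB and 63.3 in Null. The ratio of P4hb to Pdia3 was 1.01 in Null, 1.00 in B, 1.02 in A, 1.49 in BB, 1.58 in AB and 3.77 in AABB, while on day 6 of pregnancy it was between 1.14 and 1.45 in all 6 genotypes. Ero1l, the oxidase that recharges these isomerases, lay between 12.2 in B and 26.4 in AABB.

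The 4 members of ER-associated degradation had a median of 0.04 in Null, and none was at least 2-fold different there on the log2(level + 1) scale. Herpud1, a stress-induced component of the retrotranslocation complex, was lowest in AABB, at 37.0 in Null, 43.9 in B, 53.2 in A, 40.7 in BB, 49.3 in AB and 22.8 in AABB. Its log2 ratio was 1.19 in A and 1.08 in AB. Sel1l, the partner of the ubiquitin ligase, was also lowest in AABB, at 21.2 against 35.1 in Null, 27.2 in B, 27.8 in A, 27.0 in BB and 33.0 in AB.

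The ligase itself went the other way. Syvn1 (HRD1) stood at 14.1 in Null, 17.7 in B, 16.5 in A, 14.6 in BB, 29.0 in AB and 28.4 in AABB, low in BB and high in AB. Edem1, which hands misfolded glycoproteins to degradation, stood at 17.4, 17.8, 18.2, 20.3, 22.9 and 26.7, in order of allele number. Partners of one degradation complex thus differed in direction between genotypes.

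Of the 9 roles, translocation into the endoplasmic reticulum had the lowest median in Null. Of its 10 compared members, 9 were at least 2-fold lower in Null and 9 in B, with medians of −1.70 and −1.34. Ssr4, a subunit of the translocon-associated protein complex TRAP, stood at 53.0 in Null, 88.7 in B, 113 in A, 288 in BB, 259 in AB and 843 in AABB. Sec61b, the small β subunit of the channel, stood at 55.5, 94.0, 119, 253, 279 and 467.

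The subunits of one complex differed among themselves. Within TRAP, the ratio of Ssr4 to Ssr1 was 2.87 in Null, 4.07 in B, 5.06 in A, 6.17 in BB, 6.35 in AB and 14.8 in AABB, and that of Ssr2 to Ssr1 ran from 4.96 in Null to 11.2 in AABB. Ssr3 to Ssr1 stayed between 4.94 and 5.73 in all 6 genotypes. Ssr4 and Ssr2 thus differed more between genotypes than Ssr1 and Ssr3 did. In the channel, the ratio of Sec61b to the pore subunit Sec61a1 ran from 1.09 in Null to 2.55 in AABB, and that of Sec61g to Sec61a1 from 0.88 in AB to 1.52 in AABB. Sec62, a channel partner for post-translational entry, was the member of this role that stayed within 2-fold of AABB in all 5 genotypes, at 43.7 in Null and 66.1 in AABB.

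Transcript length bears on ratios of short genes such as Sec61b, whose transcript is 723 bases long. With the trend of the ratios with length and GC content removed, its log2 ratio in Null was −2.73 in place of −3.05, and that of Ssr4, at 2568 bases, was −3.94 in place of −3.96. Srpr, which encodes the α subunit of the signal recognition particle receptor, stood at 52.9 in Null, 60.9 in B, 62.0 in A, 105 in BB, 115 in AB and 146 in AABB.

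All 3 signal peptidase subunits and all 4 oligosaccharyltransferase members were at least 2-fold lower in Null, and 2 of each were in B. Spcs3 stood at 18.6 in Null, 26.3 in B, 28.0 in A, 48.7 in BB, 44.9 in AB and 71.2 in AABB. Spcs2 stood at 33.3, 47.8, 51.8, 83.9, 73.1 and 100.4, and Spcs1 ran from 64.0 in Null to 158 in AABB. The peptidase subunits kept the same order of genotypes.

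In the oligosaccharyltransferase, which attaches N-glycans to the entering chain, Ostc stood at 49.3 in Null, 63.4 in B, 66.7 in A, 139.5 in BB, 109 in AB and 188 in AABB. Rpn1 (ribophorin I) stood at 47.2, 67.4, 72.2, 122, 136 and 148. Rpn2 ran from 94.1 in Null to 209 in AABB, and Ddost from 55.3 in Null to 161 in AB. In BB and AB none of the 7 members of these complexes was at least 2-fold different from AABB.

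Vesicle transport held a contrast between paralogs. Sec23b, a subunit of the inner COPII coat, stood at 17.3 in Null, 22.1 in B, 21.1 in A, 82.8 in BB, 69.5 in AB and 135 in AABB. Its paralog Sec23a stood at 14.9, 13.5, 12.0, 16.1, 13.1 and 10.6, lowest in AABB. The ratio of Sec23b to Sec23a was 1.16 in Null, 1.64 in B, 1.76 in A, 5.15 in BB, 5.31 in AB and 12.7 in AABB. On day 6 the same ratio lay between 0.92 in AB and 2.50 in AABB.

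Among the other transport members, Lman1, the cargo receptor ERGIC-53, stood at 33.1 in Null, 39.9 in B, 42.1 in A, 85.0 in BB, 85.7 in AB and 114 in AABB. Sec24d, a cargo-binding coat subunit, stood at 15.5, 16.1, 14.2, 27.5, 38.6 and 37.8. These and Sec23b were the 3 transport members at least 2-fold lower in Null. Sec31a of the outer coat, the coat GTPase gene Sar1a and the KDEL receptor genes Kdelr2 and Kdelr3 stayed within 2-fold in all 5 genotypes.

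**Figure D2:**
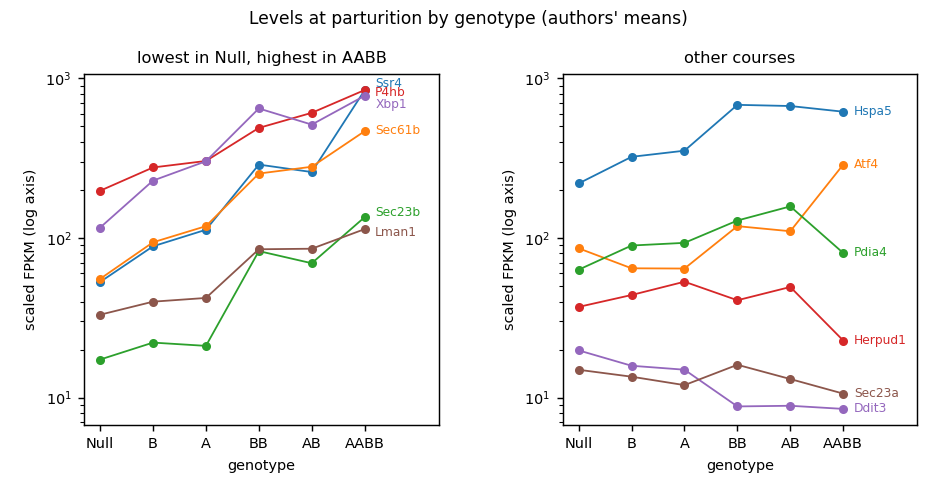
Scaled FPKM (log axis) of 12 members in the 6 genotypes at parturition, from 0 (Null) to 4 (AABB) functional alleles. Points are the authors' means without error bars, and lines only join the points of 1 gene. In the left panel Ssr4 runs from 53.0 in Null to 843 in AABB, and in the right panel Ddit3 runs from 19.8 to 8.50. Scaling to the whole FPKM sum lowers all AABB points against the others.

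The order of the levels over the genotypes was counted next. A gene was in stepwise order where Null was below both B and A, these below both BB and AB, and these below AABB. At parturition 23 of 49 members were in this order, against 6.78% of all genes. They were Xbp1, Dnajb11, Dnajc3, Pdia6, P4hb, Edem1, Srpr, Sec63, the Sec61 members, the TRAP members, the signal peptidase members, Rpn1, Rpn2, Ostc, Sec23b and Lman1. On day 6 of pregnancy 0 of 49 were, against 0.823% of all genes. Both genotypes with 2 alleles stood above both with 1 allele for 42 of 49 members at parturition, and for 26.6% of all genes. The count of stepwise members was 12 with FPKM as deposited, 16 with the columns scaled to their sum without milk proteins, 2 with scaling to luminal markers and 1 with scaling to the whole sum, because a common factor per column shifts the order between columns. The share of all genes in this order is given for the main scaling only, so these counts cannot be set against a background.

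At equal allele number, ratios between carriers of Stat5a and of Stat5b were small. Between A and B at parturition, 0 of 49 members differed at least 2-fold (0.689% of all genes in either direction), with a median log2 ratio of 0.06. A was above B for 34 of 49 members, and for 48.2% of all genes. Between AB and BB, 0 of 49 differed at least 2-fold (1.78% of all genes), with a median of 0.01. On day 6 the same 2 comparisons also gave 0 members (0.382% and 2.72% of all genes). Without replicate values, these ratios do not show that the isoforms act alike. Within BB and AB, Syvn1 was 29.0 in AB against 14.6 in BB and Creb3l1 31.1 against 17.0 at parturition, while Xbp1 was 513 against 648.

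On day 6 of pregnancy, Null and AABB were close. Of 49 members, 0 were at least 2-fold higher and 0 lower (2.21% and 2.09% of 13367 genes), and ratios ran from −0.72 for Creb3l1 to 0.54 for Herpud1. In B, 1 was higher and 0 lower (7.53% and 5.18%). In A, 2 were higher and 0 lower (7.00% and 5.53%). In BB, 4 were higher and 1 lower (5.11% and 3.60%), and AB gave the same counts (6.75% and 5.00%). These shares are near or below the background in both directions. The members' median log2 ratio was −0.11 in Null, 0.20 in B, 0.15 in A, 0.28 in BB and 0.31 in AB. Over all genes it lay between −0.02 in BB and 0.04 in B. Across all settings the members' median exceeded that of all genes by 0.21 to 0.36 in BB and by 0.21 to 0.43 in AB. The difference ran from 0.05 to 0.26 in B, from −0.01 to 0.27 in A and from −0.12 to −0.04 in Null. Scaling the columns to luminal markers instead raised the counts of higher members to 31 in B, 33 in A, 17 in BB and 34 in AB. It also raised the shares of all genes higher, to 40.8%, 44.4%, 14.2% and 39.6%, so day 6 counts for these genotypes rest on the scaling.

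The members counted as higher on day 6 were Sec23a, Sec24d, Creb3l2 and Kdelr3. Their number was near or below the background share, so they are given as single genes and not as a result about the members. Sec23a, the coat subunit needed for collagen export in skeletal tissue, stood at 9.93 in Null, 17.9 in B, 18.8 in A, 19.7 in BB, 22.9 in AB and 8.06 in AABB. Sec24d stood at 11.7, 19.0, 18.1, 27.6, 32.2 and 12.4, and Creb3l2, a factor known to activate Sec23a in cartilage, at 9.29, 11.9, 10.7, 20.9, 21.0 and 7.66. Kdelr3, a receptor that returns escaped ER proteins, stood at 8.43, 20.9, 24.1, 25.3, 24.0 and 11.0. Creb3l1, known in bone for activating collagen genes, stood at 9.35 in Null, 9.14 in B, 8.66 in A, 28.0 in BB, 28.4 in AB and 16.1 in AABB, within 2-fold of AABB.

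Fibroblast markers also differed between genotypes on day 6. All 12 fibroblast and matrix markers were at least 2-fold higher in BB and in AB, 9 in B, 8 in A and 2 in Null, and 1, Col1a1, was lower in A. Their summed level was 2183 in Null, 6272 in B, 6080.1 in A, 10453 in BB, 9657 in AB and 2440.3 in AABB, with none listed at 0. Col1a1 stood at 326 in Null, 328 in B, 297 in A, 1573 in BB, 1412 in AB and 605 in AABB. Like Creb3l1, it was below AABB in Null, B and A and above it in BB and AB. The part of these markers in the members' ratios was not tested. In bulk tissue, more cells of a type and more RNA per cell cannot be told apart. Skeletal muscle markers summed to 471 in Null, 29.4 in B, 64.7 in A, 114 in BB, 6473 in AB and 109 in AABB. B and plasma cell markers summed to 36.3, 243, 174, 35.2, 23.2 and 9.81 in the same order. Luminal epithelial markers summed to 1743, 1401, 1284, 1481, 1009 and 2184, highest in AABB. The sum of 8 mast cell markers was 77.6 in Null, 481 in B, 468 in A, 387 in BB, 285 in AB and 71.1 in AABB, with none listed at 0. Like Sec23a and Kdelr3, it was higher in B, A, BB and AB than in Null and AABB. The sum of 10 adipocyte markers was 35319 in Null and between 16608 in AABB and 22942 in AB elsewhere. The part of these other markers was not tested either.

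Atf4 was the member counted as lower on day 6. It stood at 72.6 in Null, 60.4 in B, 58.7 in A, 45.0 in BB, 49.6 in AB and 108 in AABB, again highest in AABB. Its log2 ratio was −1.25 in BB and −1.11 in AB. Of the others, Sec61b was below AABB in all 5 genotypes by less than 2-fold, at 104 in Null, 87.5 in B, 87.2 in A, 96.7 in BB, 95.8 in AB and 168 in AABB.

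**Figure D3:**
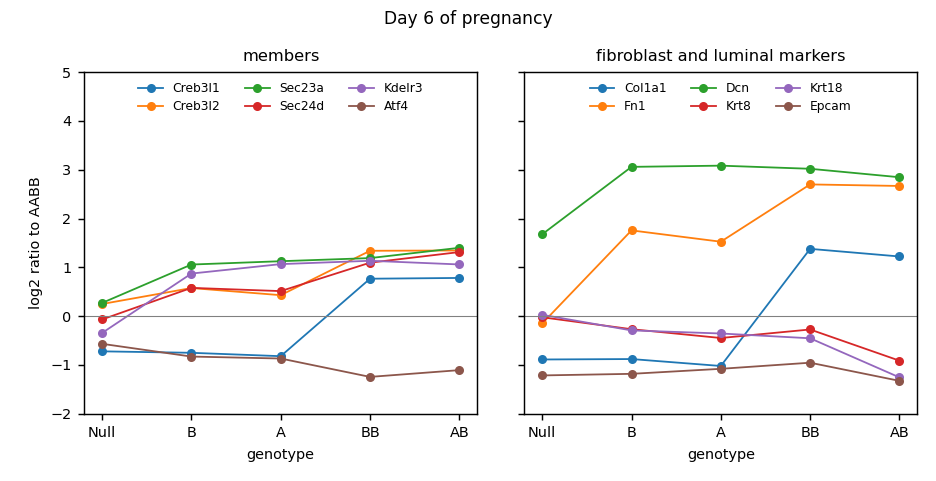
Log2 ratio of scaled FPKM + 1 to AABB in 5 genotypes on day 6 of pregnancy, for 6 members (left) and for 3 fibroblast markers (Col1a1, Fn1, Dcn) and 3 luminal epithelial markers (Krt8, Krt18, Epcam) (right). Points are ratios of the authors' means without error bars, and lines only join the points of 1 gene. Creb3l1 and Col1a1 are below 0 in Null, B and A and above 0 in BB and AB, while Sec23a is above 1 in B, A, BB and AB. Scaling to luminal markers lifts all lines for B, A, BB and AB.

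The loss of all 4 alleles thus went with different ratios at the 2 stages. The log2 ratio of Null to AABB was lower at parturition than on day 6 for 40 of 49 members, and by at least 1 for 28 of them. The median difference was −1.17 over the members and 0.13 over 12757 genes compared at both stages, of which 8.89% differed by −1 or less. Ssr4 had a ratio of −0.14 on day 6 and −3.96 at parturition. Xbp1 had −0.19 and −2.73, and Hspa5 −0.31 and −1.49. With scaling to the whole FPKM sum the members' median difference was 0.78. The tables were normalized separately, so levels are not compared between stages.

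**Figure D4:**
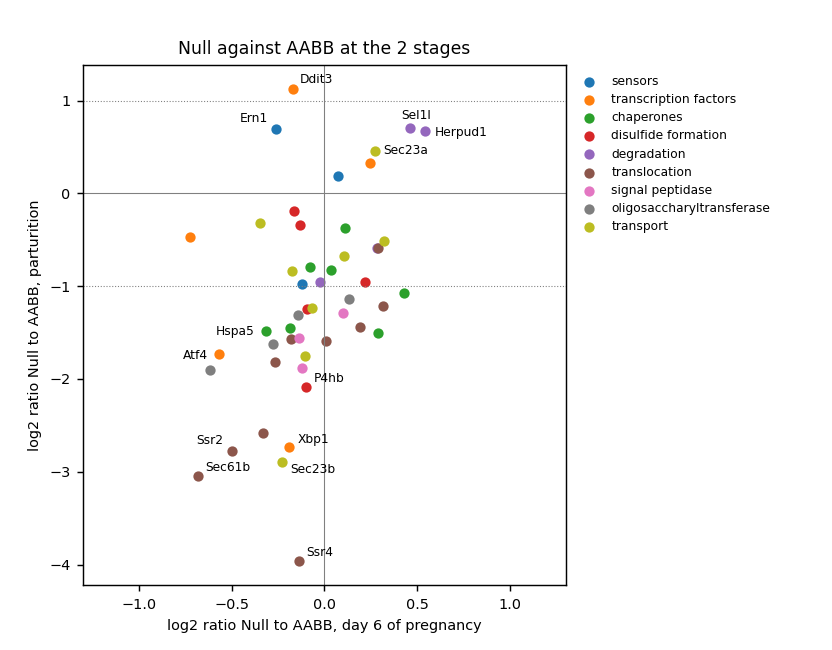
Log2 ratio of Null to AABB for 49 members on day 6 of pregnancy (x axis) and at parturition (y axis), coloured by role, with dotted lines at 2-fold on the y axis. Each point is 1 gene and rests on 4 of the authors' means. All points lie between −0.72 and 0.54 on the x axis, while on the y axis they run from −3.96 (Ssr4) to 1.13 (Ddit3). Scaling to the whole FPKM sum shifts the points upward.

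Set against the milk transcripts they serve, the members differed far less between genotypes. At parturition the 15 milk protein genes made up 0.802% of the FPKM sum in Null, 2.08% in B, 5.03% in A, 42.9% in BB, 46.0% in AB and 66.4% in AABB. The 50 members made up 0.784% in Null, 0.988% in B, 0.990% in A, 0.889% in BB, 0.997% in AB and 0.616% in AABB. Of the sum without milk genes, they made up 0.791%, 1.01%, 1.04%, 1.56%, 1.85% and 1.83%. Milk transcript per member transcript was 1.02 in Null and 108 in AABB. On day 6 the members made up between 0.647% of the FPKM sum in Null and 0.868% in BB.

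Luminal epithelial markers at parturition followed the members only in part. Their summed level over 15 genes was 1406 in Null, 2499 in B, 2550.1 in A, 2805 in BB, 2640.4 in AB and 2050.1 in AABB, with none listed at 0. This sum was lowest in Null, as 34 of 49 members were, but highest in BB rather than in AABB. In Null, 4 of 15 markers were at least 2-fold lower and 1 higher, against 10.7% and 19.0% of all genes. The keratin gene Krt18 stood at 340.4 in Null, 628 in B, 673 in A, 692 in BB, 473 in AB and 284 in AABB. Krt18 was lowest in AABB and the luminal sum lowest in Null, so ratios to Krt18 set Null and AABB farther apart than ratios to that sum would. Relative to Krt18, Ssr4 was 0.16 in Null, 0.14 in B, 0.17 in A, 0.42 in BB, 0.55 in AB and 2.96 in AABB. The same ratio for Xbp1 was 0.34, 0.36, 0.45, 0.94, 1.08 and 2.73, and for Hspa5 0.65, 0.51, 0.52, 0.99, 1.42 and 2.17. On day 6 the ratio of Ssr4 to Krt18 lay between 0.24 and 0.52.

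Other cell types also differed at parturition. The summed level of 12 fibroblast markers was 522 in AABB and between 1886 in A and 2998 in BB elsewhere. That of 10 adipocyte markers was 26445 in Null, 15957 in B, 16873 in A, 8605 in BB, 7068 in AB and 3999 in AABB, with none listed at 0 in either list. Skeletal muscle markers summed to 3381 in Null, 2046 in B and 2119.8 in A, against 4.91 in BB, 8.29 in AB and 216 in AABB. The sum of 8 mast cell markers was 15.1 in AABB and between 160 in AB and 223 in B elsewhere. That of 7 macrophage markers was 328 in AABB, 422 in Null and between 759 in AB and 1066 in A elsewhere. Their part in the members' ratios was not tested.

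The ratios of members with and without an ER stress response element in the promoter window overlapped. Of the 7 with the element, 3 were at least 2-fold lower in Null at parturition, with a median of −0.96 and a range from −1.51 (Dnajc3) to −0.37 (Canx). Of the 34 compared members with a RefSeq promoter but no element, 19 were lower, with a median of −1.18. The sites printed above for Hspa5, Dnajc3 and Pdia6 thus belong to lower members, and those of Calr, Canx, Hsp90b1 and Syvn1 to members within 2-fold. The 3 members with the STAT form had ratios of −2.89 (Sec23b), −2.58 (Sec61g) and −0.98 (Eif2ak3). Ssr4, Xbp1 and Sec61b, also among the lowest ratios, had a promoter entry and no match to it. The 38 compared members with an entry and no STAT form had a median of −1.11, and 20 of them were at least 2-fold lower.

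Further genes of the same steps, not among the members, were taken from fixed lists and are given for Null at parturition. Of 13 compared genes of targeting, translocation and signal cleavage, 7 were at least 2-fold lower and 0 higher, and Sec11c, a catalytic signal peptidase subunit, stood at 31.7 in Null, 44.8 in B, 60.4 in A, 174 in BB, 169 in AB and 394 in AABB. Tram1, a translocation-associated membrane protein gene, stood at 44.4 in Null and 235 in AABB, its relative Tram2 at 5.35 and 2.37, and the channel paralog Sec61a2 at 11.5 and 6.92. Of 16 glycosylation genes, 7 were lower and 0 higher. Krtcap2 (65.1 against 305) and Dad1 (15.7 against 70.1), both oligosaccharyltransferase subunits, were lowest, and Tusc3 (21.7 against 13.6) and Uggt2 (2.14 against 0.69) highest. By level alone Tram2 and Uggt2 were more than 2-fold higher in Null, but the pseudocount of 1 kept them out of the counts of higher genes.

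Among these further lists, folding factors held the gene with the lowest ratio. Of 22 compared, 12 were at least 2-fold lower and 2 higher. Fkbp11, a prolyl isomerase of secretory cells, stood at 6.83 in Null, 18.1 in B, 23.4 in A, 254 in BB, 287 in AB and 1019.7 in AABB, a log2 ratio of −7.03 in Null. The ER peroxiredoxin gene Prdx4 stood at 30.8, 50.1, 61.9, 122, 124 and 462, whereas Fkbp7 and Fkbp14, relatives of Fkbp11, stood at 26.9 and 11.6 in Null against 8.58 and 5.18 in AABB. Prdx4 and Fkbp11 were in the stepwise order that Fkbp7 was not.

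Degradation and stress genes stood on both sides of AABB. Of 16 degradation genes, 4 were lower and 0 higher, with Derl3 at 0.74 in Null and 21.0 in AABB and Edem2 at 14.7 and 62.3, while Derl1 stood at 71.8 and 55.2. Of 18 stress genes, 6 were lower and 2 higher. Bhlha15, which encodes the secretory cell factor MIST1, stood at 0.66 in Null, 3.63 in B, 5.23 in A, 24.7 in BB, 26.3 in AB and 60.1 in AABB. Nupr1 stood at 106 in Null and 388 in AABB. The 2 higher genes were Stc2, at 39.8 in Null against 14.8, and Chac1, a target of the PERK branch, at 7.63 against 3.17.

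In vesicle transport the counts ran one way. Of 24 COPII and cargo receptor genes, 11 were lower in Null and 0 higher, and of 13 COPI genes 4 were lower and 0 higher. Tmed3 stood at 52.1 in Null and 318 in AABB, Surf4 at 71.5 and 321, Cope at 62.3 and 244, and Copz1 at 68.7 and 270.1. At the other end Sec24b (18.3 against 13.2), Sec31b (3.16 against 1.65), Copg2 (20.9 against 20.6) and Copz2 (46.1 against 56.0) stayed within 2-fold. Each of these counts can be read beside the 10.7% of all genes that were lower in Null.

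The size of the members' shift depended on the scaling, while its position against all genes depended less on it. For Null against AABB at parturition the members' median was −0.75 with FPKM as deposited (all genes 0.50), −0.85 with scaling to the sum without milk proteins (0.42), −0.75 with scaling to luminal markers (0.53) and 0.68 with scaling to the whole sum (1.67). Under the last, 41 of 49 members were below the all-gene median for Null, 38 for B, 38 for A, 31 for BB and 24 for AB. For AB the members' median then lay 0.06 above that of all genes, where the main scaling put it 0.16 below.

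**Figure D5:**
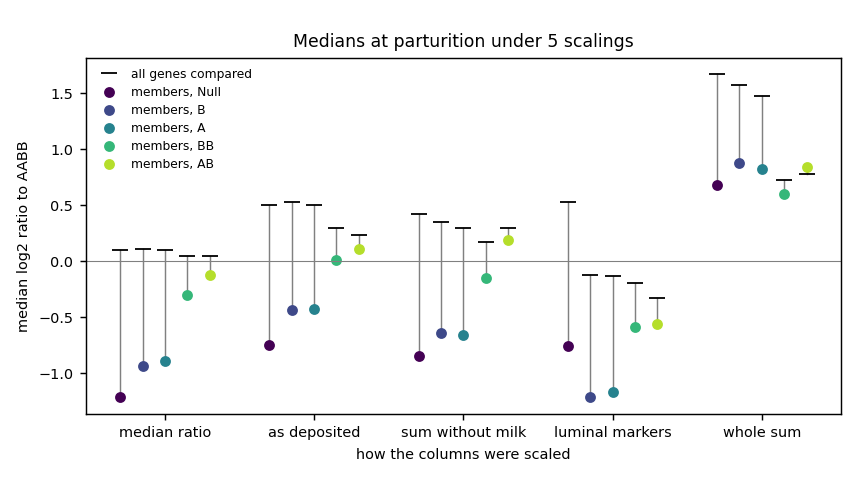
Median log2 ratio to AABB at parturition over 49 members (points, coloured by genotype) and over all genes compared (black dashes), under 5 ways of scaling the columns (x axis). Grey lines join the members and all genes of 1 comparison. In Null, B, A and BB the members lie below all genes under each of the 5 scalings. In AB they lie 0.06 above all genes under scaling to the whole FPKM sum, where all 5 points are above 0.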

How the data were processed

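The authors deposited FPKM values by gene symbol in 2 tables of 22609 genes. The submitters' processing notes name CASAVA, TopHat and build mm9, without versions. The program that computed FPKM and its annotation are not given in the sources used here. Each table holds 1 column per genotype. Decimals ending in a recurring 3 or 6, as division by 3 gives, made up 66.4% to 67.5% of values in columns with 3 samples and 0.62% to 0.87% in columns with 2, so the columns are means over the listed samples, although the labels' protocol speaks of 2 mice of each genotype. Read depth is unknown. The tests laid out for values per sample could not be used, and the ratios carry no p-value.

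Within a stage, each column was divided by the median of its ratios to the row-wise geometric mean, taken from genes that reached 1 FPKM in every column (11733 genes on day 6, 10864 at parturition). The comparisons cover genes that reached 1 FPKM in 2 or more of the 6 columns, 13367 and 13061. Ratios used a pseudocount of 1. Alternatives were a pseudocount of 0.1, no filter, a minimum of 5 FPKM, no scaling, scaling to the sum without milk proteins or to luminal markers, and removal of the trend with length and GC content (lowess fraction 0.3; GENCODE M21 by symbol, 98.2% of genes). Scaling to the whole FPKM sum was added after seeing the data.

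Members and gene lists were chosen with earlier results of these data known. Genes named were the sensors and factors, the 2 members per role with the largest ratio of Null to AABB at parturition, members at least 2-fold from AABB on day 6 or opposite to their role's median, the 2 lowest and 2 highest genes of each further list, and defining cell type markers; other members were named after their values were seen, and 1 degradation gene that the rule picks is not reported here. Promoter sequences came from RefSeq (GRCm38.p6), and no coordinate of another build was used. The calculation was tested on simulated data. The software was Python 3.11.15 with pandas 2.3.3, numpy 2.4.6 and, for lowess, statsmodels 0.14.6; matplotlib 3.10.9 drew the figures. The genotype with Stat5b deleted and 2 Stat5a alleles is not analysed here.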

Additional observations from a re-analysis of the deposited data

How the results depend on the processing

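Values here are counts of 49 members at least 2-fold from AABB, or log2 ratios, unless stated. Counts in stepwise order under other settings have no share of all genes beside them. Of 356 recomputed summary results, 297 stayed within the tolerance, which lets a median within 2-fold of AABB change sign. Among those that did, the AB median at parturition went from −0.12 to 0.19 with the sum without milk proteins and 0.11 as deposited. The BB median at parturition went from −0.30 to 0.01 as deposited. The Null median on day 6 went from −0.11 to 0.31 with luminal markers. No paired analysis was possible because the columns are means without replicate numbers, and leaving out single replicates and the fit with a replicate block were not run for that reason. A filter minimum of 5 FPKM and no filter moved no summary count or median past the tolerance. Because depth is unknown, the counting error of low genes such as Ern1 cannot be given.

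A pseudocount of 0.1 gave 2 lower members in AB on day 6 (1 in the main setting) and 1 higher in B at parturition (0). The shares of all genes were 7.64% and 24.5%. Removing the length and GC trend gave 1 higher in A (2) and 0 lower in AB (1) on day 6, and 1 higher in B (0) and 2 in AB (1) at parturition. The shares of all genes were 5.95%, 3.58%, 17.9% and 9.94% in the same order. FPKM as deposited gave 2 lower members in BB and 2 in AB on day 6 (1 each) and 1 in stepwise order (0). Of all genes, 4.97% were lower in BB and 7.46% in AB. At parturition FPKM as deposited gave 9 lower in B (22), 8 in A (19) and 1 in BB (2). The shares of all genes lower were 4.88%, 4.88% and 3.06%. It gave 4 higher in Null (1), 3 in B (0), 2 in A (1), 1 in BB (0) and 3 in AB (1). Of all genes, 28.6%, 29.1%, 27.2%, 12.3% and 13.6% were higher in these. Stepwise order held 12 members (23). Scaling to the sum without milk proteins gave 2 higher in B on day 6 (1), where 11.8% of all genes were higher. At parturition it gave 3 higher in Null (1), 3 in B (0) and 4 in AB (1), against 26.4%, 23.8% and 15.8% of all genes. It also gave 14 lower in B (22), against 6.33%, and 1 higher in AB than in BB (0), against 2.08%. The cause of the small shifts was not tested.

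Scaling to luminal markers gave 31 higher members in B (1), 33 in A (2), 17 in BB (4) and 34 in AB (4) on day 6, where 40.8%, 44.4%, 14.2% and 39.6% of all genes were higher, with medians of 1.12 in B, 1.19 in A and 1.28 in AB, and 0 lower in BB and AB (1 each). The shares of all genes lower on day 6 were 1.19% in BB and 0.950% in AB. At parturition scaling to luminal markers gave 30 lower in A (19), 7 in BB (2) and 12 in AB (2). Of all genes, 14.9%, 9.26% and 13.4% were lower. It gave 4 higher in Null (1) and 0 in A and AB (1 each), against 30.8%, 13.1% and 4.86% of all genes. Stepwise order held 2 members (23).

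Scaling to the whole FPKM sum, added after seeing the data, gave 2 higher in B on day 6 (1), where 12.2% of all genes were higher. At parturition it gave 2 lower in Null (27), 1 in B (22), 1 in A (19), 0 in BB (2) and 0 in AB (2). Of all genes, 1.58%, 1.26%, 1.31%, 1.13% and 0.896% were lower in the same order. The members higher were 19 in Null (1), 22 in B (0), 18 in A (1), 10 in BB (0) and 16 in AB (1), where 81.2%, 78.9%, 75.1%, 28.2% and 34.7% of all genes were higher, with 1 higher in AB than in BB (0) and 1 in stepwise order (23). The medians were 0.68 in Null, 0.88 in B, 0.82 in A, 0.60 in BB and 0.84 in AB, and the median difference of Null between stages was 0.78, against −1.17. By construction this scaling divides each column by a sum of which milk genes are 66.4% in AABB. It turned the sign of 27 single ratios that had been at least 2-fold lower. In Null these were Atf4 (0.20), Dnajc3 (0.39), Hspa5 (0.45), Lman1 (0.15), Ostc (0.011), Pdia6 (0.68), Rpn1 (0.29), Sec24d (0.62), Spcs2 (0.34) and Spcs3 (0.0031). In B they were Dnajc3 (0.46), Lman1 (0.33), Ostc (0.27), P4hb (0.23), Rpn1 (0.70), Sec24d (0.59), Spcs2 (0.76), Spcs3 (0.40) and Xbp1 (0.077). In A they were Dnajc3 (0.42), Lman1 (0.30), Ostc (0.24), P4hb (0.26), Rpn1 (0.69), Sec24d (0.30), Spcs3 (0.37) and Xbp1 (0.37).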

Other observations

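Known targets of ATF4 in the stress list, singled out after their values were seen, did not share one course at parturition. Asns (asparagine synthetase) stood at 52.0 in Null, 35.7 in B, 38.0 in A, 63.1 in BB, 66.5 in AB and 151 in AABB. Nupr1 stood at 106, 71.1, 67.7, 70.6, 90.9 and 388, and Trib3 at 4.78, 5.52, 3.50, 4.94, 5.59 and 13.0. Like Atf4 itself, these 3 genes were highest in AABB. Sesn2 was instead lowest in AABB, as Ddit3 was, at 6.70 in Null, 6.58 in B, 4.98 in A, 3.65 in BB, 4.93 in AB and 3.50 in AABB. The log2 ratio of Null to AABB was −1.53 for Asns, −1.28 for Trib3 and −1.87 for Nupr1. Scaling to the whole FPKM sum moved the members' median in Null from −1.22 to 0.68, so the direction of these 3 genes against AABB rests on the scaling.

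On day 6 of pregnancy, 3 of 18 compared genes of the stress list were at least 2-fold higher in Null than in AABB and 0 lower, while 2.21% of all genes compared were higher and 2.09% lower. Stc2, which encodes a secreted glycoprotein, stood at 116 in Null, 31.5 in B, 34.0 in A, 43.7 in BB, 13.7 in AB and 24.7 in AABB. Asns stood at 74.8, 35.4, 35.7, 28.8, 40.4 and 35.5, and Chac1 at 6.41, 3.48, 3.35, 1.42, 4.25 and 1.70. These 3 genes were highest in Null, whereas Xbp1 and Ddit3 were highest in AABB and Hspa5 was lowest in Null. Of the 22 folding genes compared, Fkbp11 was the one at least 2-fold lower in Null, at 8.46 against 38.6 in AABB. In the other 4 genotypes it stood between 12.6 in AB and 20.2 in A. On the log2(level + 1) scale, the 24 compared genes of the COPII list and the 13 of the COPI list included none at least 2-fold from AABB on day 6 in any of the 5 other genotypes.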
